A study of Mus musculus with 4 samples.

Results

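Lineage-unprimed cells of the mouse stem and progenitor compartment were compared between tdTomato-positive and tdTomato-negative sort gates. A cell was called lineage-unprimed, a working name, when it had 0 UMIs (counted molecules) of each of 9 genes and under 2 UMIs of Elane. The 9 genes mark megakaryocyte (Pf4), megakaryocyte-erythroid (Gata1), erythroid (Klf1), granulocyte-monocyte (Ms4a3), lymphoid (Dntt, Il7r) and B-cell (Ebf1, Cd79a) fates and cycling (Mki67), and Elane encodes neutrophil elastase. Cells also needed at least 1000 genes, at most 10% mitochondrial UMIs, and a top hashtag of at least 10 UMIs and at least 3 times the next. Of 38266 barcodes, 33042 met the conditions on quality and hashtag, and 15015 of these (45.4%) met the rule, 8075 in the GEM-X and 6940 in the v3.1 library. The members were thus chosen by measured UMI counts of these 10 genes and by quality and hashtag counts, so the 10 genes were left out of every test, and the share of cells that met it is a description.

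All cells came from 2 male Tppp3CreER LSLTdTomato mice given tamoxifen at postnatal days 0 and 3 and studied at 3 months of age. Both gates of a mouse therefore share the genotype, the tamoxifen, the sex and the age, and differ in tdTomato alone as far as the labels say. Lineage-negative, Sca-1-positive, Kit-positive bone marrow cells were sorted into a positive and a negative tube per mouse, each with its own TotalSeq-B hashtag antibody, and each of the 4 tubes was divided between the GEM-X and v3.1 droplet chemistries of 10x Genomics. The submitters call the cells HSCs (haematopoietic stem cells), and the labels describe the sort in 2 ways, per mouse and with both mice in 1 tube. Here the hashtag alone decides the mouse of a cell. No mouse without Cre, reporter or tamoxifen was analysed here, and the labels do not say into which locus the reporter was placed.

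The hashtag assigns each cell to its gate and mouse, so each result rests on the 4 oligo barcodes of 15 bases that the deposited text pairs with the tubes. They are shown in lower case, 5′ to 3′.
Tppp3Pos_M1: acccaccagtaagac
Tppp3Neg_M1: ggtcgagagcattca
Tppp3Pos_M2: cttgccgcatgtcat
Tppp3Neg_M2: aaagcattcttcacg

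As background, a Cre recombinase fused to a modified oestrogen receptor is designed to act only while tamoxifen is present. Removal of a stop cassette then switches on tdTomato for good in that cell and its descendants. The gate in the adult marrow is thus meant to report Cre activity in the newborn and not present transcription of Tppp3, which encodes a tubulin polymerization-promoting protein. Whether Cre also acted without tamoxifen was not tested. Haematopoietic stem cells divide rarely, give rise to all blood lineages through multipotent progenitors, and in part carry transcripts of the platelet lineage.

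The gates gave similar shares of unprimed cells within each mouse. In mouse 1, 1544 of 3900 positive cells (39.6%; exact binomial 95% interval 38.1 to 41.1) and 4940 of 12762 negative cells (38.7%; 37.9 to 39.6) met the rule. In mouse 2 it was 2062 of 3945 positive cells (52.3%; 50.7 to 53.8) and 6469 of 12435 negative cells (52.0%; 51.1 to 52.9). The mice were further apart than the gates. With each cell thinned to 4000 UMIs, which leaves out shallower cells, the shares were 51.3% and 50.9% in mouse 1 and 61.5% and 61.8% in mouse 2. Mki67 removed the most cells (10924 of 33042), followed by Dntt (6963), Pf4 (3099) and Ms4a3 (2386). Just inside the rule were 1117 cells with 1 UMI of Elane, and just outside were 80 cells with 2 UMIs that met all other conditions. The hashtag ratio lay between 3 and 4 in 91 member cells and between 2 and 3 in 295 otherwise eligible cells. Intervals here cover counting error only.

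Median depth per unprimed cell was 7721 UMIs in the positive and 7715 in the negative tube of mouse 1, and 6744.5 and 6846 in mouse 2. Summed over cells, the tubes held 12143186, 40117858, 14261098 and 46143119 UMIs in the order positive and negative of mouse 1, then of mouse 2, so the positive tubes measure each gene less precisely. No barcode was shared by the 2 libraries.

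The name unprimed holds for the genes of the rule and not for every lineage gene. Of the 15015 cells, 87.7% had a UMI of Hlf and 88.2% of Mecom, transcription factors of stem cells. Flt3, a receptor of multipotent progenitors, was seen in 68.2%, Mpo (myeloperoxidase) in 41.8%, Cd48 in 35.9%, the stem cell receptor Procr in 25.7% and Vwf, a platelet-lineage gene, in 4.0%. Levels are in CPM, the UMIs of the genes relative to all UMIs of the same set of cells (unprimed or remaining) in the tube, scaled to a common total. Summed over 16 HSC markers, the level was 4062 to 4175 CPM across the 4 tubes, above 2222 to 2520 CPM in the remaining cells. Over 21 granulocyte-monocyte markers it was 755 to 980 CPM, below 1492 to 3131 CPM in the remaining cells. Over 18 lymphoid markers it was likewise lower, at 211 to 249 CPM against 409 to 476 CPM. Megakaryocyte-platelet markers (25 genes) went the other way in each tube, at 436 to 480 CPM against 319 to 446 CPM. For 19 erythroid markers the ranges overlapped, at 730 to 790 CPM and 685 to 1230 CPM. How far the rule sets these levels was not tested. Free RNA in droplets can add single UMIs, and the level of such background was not measured here.

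The main comparison asked which genes differ between the tdTomato gates once primed and cycling cells are removed. Counts were summed per tube over both chemistries and tested with edgeR's quasi-likelihood test with the mouse as a block. Of 14836 genes tested, 20 passed at an adjusted p of 0.05 (0.135%), 8 higher in the positive tubes (0.0539%) and 12 lower (0.0809%). Differences below are log2, positive over negative, with a standard error (SE) from a spread pooled over genes rather than from the 2 mice. The calls fell into 4 sets. Jun, Fos and 3 histone genes were higher. Gt(ROSA)26Sor, its neighbour Setd5 and Hmga2 were lower. A set of 7 neutrophil genes was lower through 6 cells, and 5 sparse genes made up the rest. The edgeR calls depend on the test: DESeq2 with the same block called 1 gene (Ngp; 21 genes at an unadjusted p under 0.05) and edgeR without the block called 0 genes (147 at an unadjusted p under 0.05), against 906 genes at an unadjusted p under 0.05 in the main fit. With 1 tube left out, which removes the block, edgeR called 0 genes without the positive tube of either mouse, 45 when the negative tube of mouse 1 was dropped and 3 when that of mouse 2 was. An exact permutation test of 2 against 2 tubes that ignores the pairing cannot go below a two-sided p of 0.333 for a single gene. With the pairing within mouse kept, this limit is higher still.

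**Figure D1:**
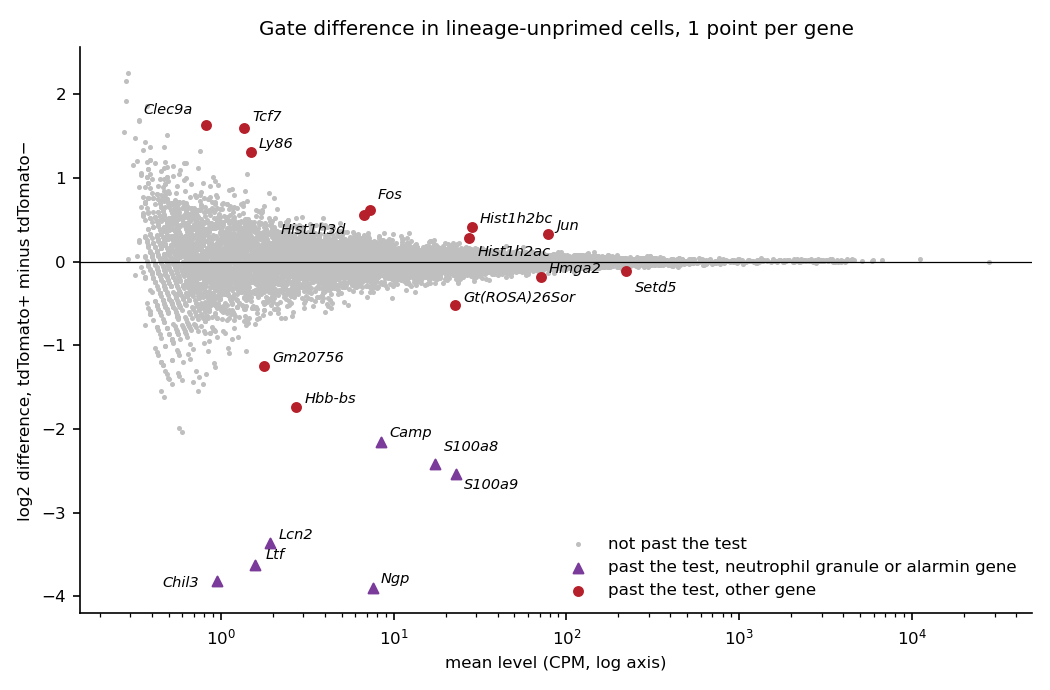
Gate difference (log2, tdTomato-positive minus tdTomato-negative) against the mean level (CPM, log axis) for the 14836 genes tested in unprimed cells. Coloured and named points are the 20 genes past the test; 7 neutrophil genes (triangles) lie lowest, between -2.15 and -3.90, while Jun and Setd5 are abundant genes with small differences.

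Tppp3 itself was nearly absent. The gene (chr8:105467493-105471526, mm10) gave 10 UMIs in the positive and 32 in the negative tube of mouse 1, and 15 and 27 in mouse 2, or 0.832, 0.804, 1.04 and 0.580 CPM. No cell held more than 2 UMIs. Both positive tubes were above both negative tubes, in mouse 1 by little. The log2 difference was 0.47 ± 0.39 (SE, n = 2 mice; edgeR adjusted p = 0.939). The deposited gene list holds no tdTomato feature, so the gates could not be checked by the reporter's own transcript.

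Gt(ROSA)26Sor, the noncoding gene of the Rosa26 locus that is widely used to host reporter transgenes, was lower in both positive tubes. Its level was 18.9 CPM in the positive and 26.1 CPM in the negative tube of mouse 1. In mouse 2 it was 15.4 CPM and 22.9 CPM. Both positive tubes lay below both negative tubes. The log2 difference was -0.52 ± 0.077 (SE, n = 2 mice; adjusted p = 5.26e-08), or -0.46 in mouse 1 and -0.57 in mouse 2, and it was -0.44 in GEM-X and -0.61 in v3.1 cells. At 4000 UMIs per cell, 7.1% of positive and 9.48% of negative cells of mouse 1 had a UMI of the gene, against 5.50% and 8.56% in mouse 2. No cell held more than 4 UMIs, so the difference was spread over many cells.

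The annotation (GENCODE M21, mm10) places Gt(ROSA)26Sor at chr6:113067428-113077333 on the minus strand. Setd5, which encodes a SET domain protein, starts 32 bases from its start and runs the other way (chr6:113077365-113153435, plus strand). Setd5 stood at 210.5 CPM (positive) and 229.1 CPM (negative) in mouse 1 and at 209.7 CPM and 226.2 CPM in mouse 2. These gates did not overlap either, with a log2 difference of -0.11 ± 0.024 (SE, n = 2 mice; adjusted p = 0.00268). The call was kept in 10 of 22 alternatives and was lost, among others, in GEM-X cells alone (adjusted p = 0.196), in v3.1 cells alone (0.839) and with cells thinned to 4000 UMIs (0.177), where the log2 difference was -0.11, -0.10 and -0.11. Thumpd3 (chr6:113046225-113068273, plus strand) overlaps the far end of Gt(ROSA)26Sor by 846 bases. It gave 48.1 and 49.6 CPM in mouse 1 and 49.7 and 51.3 CPM in mouse 2, and its log2 difference of -0.05 ± 0.049 did not pass the test (adjusted p = 0.957). The sources used here do not say whether the authors counted by strand, so reads in the overlap could belong to either gene.

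**Figure D2:**
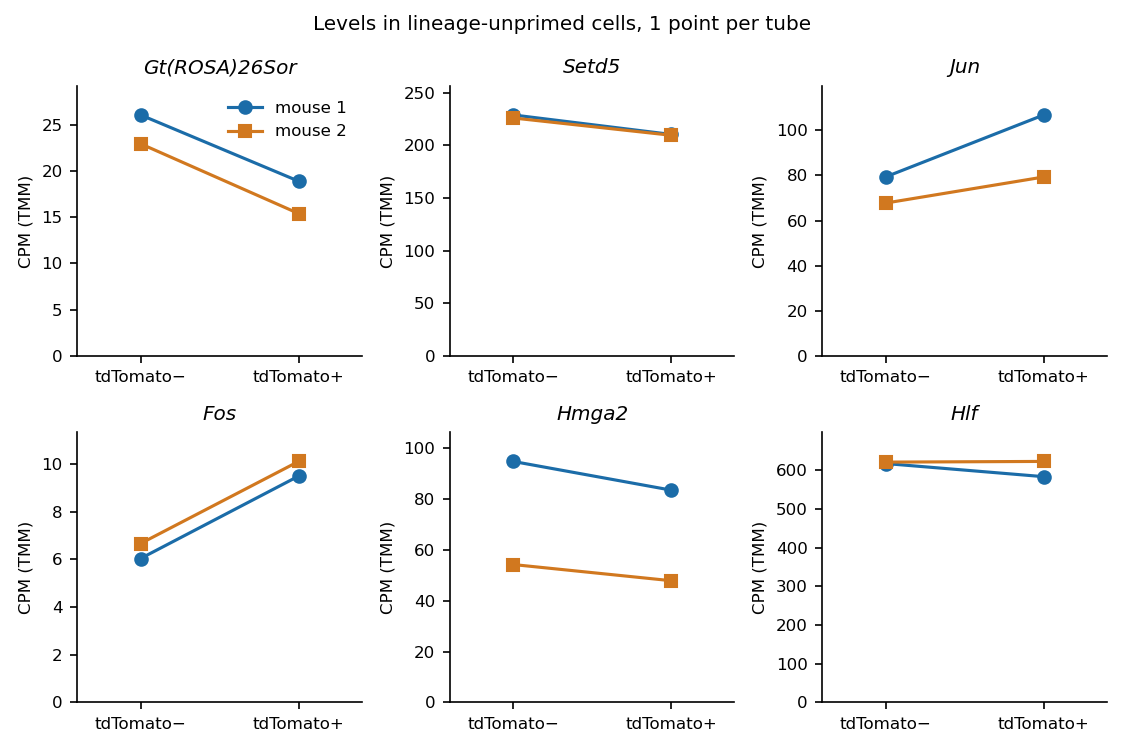
Level (CPM, TMM-scaled) of 6 genes in the unprimed cells of each tube, with lines joining the 2 gates of a mouse. Gt(ROSA)26Sor and Setd5 are lower and Jun and Fos higher in the positive tube of both mice, Hmga2 is lower within each mouse although the mice differ more, and the stem cell gene Hlf stays between 583 and 623.

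Jun and Fos, which encode the partners of the AP-1 transcription factor and belong to the immediate early genes that respond within minutes to signals and to handling of cells, were higher in the positive tubes. Their RefSeq promoters (GRCm38.p6, the 250 bases before the start, on the gene's strand) are shown because both genes passed the test and encode AP-1 partners. Whether these promoters have a part in the differences was not tested. Capitals mark matches on either strand to 4 motifs. The first is TGACNTCA, a pattern of the CRE type with a free base, which does not match the shorter AP-1 consensus site. The CRE half-site was searched as TGACGT and can overlap the first motif. The TATA box, which positions the start of transcription, was searched as TATAAA. The GC box bound by Sp1 was searched as GGGCGG.
Jun, chr4:95052223-95052472, minus strand: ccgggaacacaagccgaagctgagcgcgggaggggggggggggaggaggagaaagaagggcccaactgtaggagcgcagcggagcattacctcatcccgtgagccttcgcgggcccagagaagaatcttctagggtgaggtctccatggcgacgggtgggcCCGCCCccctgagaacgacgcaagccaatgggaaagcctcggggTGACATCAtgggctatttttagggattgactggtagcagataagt
Fos, chr12:85473640-85473889, plus strand: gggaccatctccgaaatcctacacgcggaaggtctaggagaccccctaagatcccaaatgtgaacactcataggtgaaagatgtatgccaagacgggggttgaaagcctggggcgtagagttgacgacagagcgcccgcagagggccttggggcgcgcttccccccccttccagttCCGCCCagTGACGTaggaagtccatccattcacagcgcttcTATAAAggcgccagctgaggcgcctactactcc

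Jun held the first motif, of the CRE type, and a GC box, and Fos a CRE half-site, a TATA box and a GC box. Of 27025 RefSeq promoters cut to the same 250 bases, 7.59% held the first motif, 6.56% the CRE half-site, 12.97% the TATA box and 32.9% the GC box. A match is a description of letters and not of binding.

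Jun was at 106.8 CPM in the positive and 79.4 CPM in the negative tube of mouse 1. In mouse 2 it was at 79.3 CPM and 67.8 CPM. Jun was higher in the positive tube of each mouse, but the positive tube of mouse 2 stood at the level of the negative tube of mouse 1, so the gates met across mice. The log2 difference was 0.33 ± 0.038 (SE, n = 2 mice; adjusted p = 5.95e-14), or 0.43 and 0.23 by mouse and 0.34 and 0.31 in GEM-X and v3.1 cells. At 4000 UMIs per cell a UMI of Jun was found in 27.6% of positive and 23.0% of negative cells of mouse 1 (unthinned 38.9% and 33.9%), and in 22.2% and 19.4% in mouse 2 (unthinned 31.1% and 28.1%).

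Fos was sparser, at 9.48 and 6.03 CPM in the positive and negative tube of mouse 1 and at 10.1 and 6.66 CPM in mouse 2. Both positive tubes were above both negative tubes. The log2 difference was 0.62 ± 0.12 (SE, n = 2 mice; adjusted p = 0.000111), with 0.65 and 0.60 by mouse. In GEM-X cells alone and in v3.1 cells alone it was 0.62 and 0.61, without a call (edgeR adjusted p = 0.151 and 0.119). At 4000 UMIs per cell, 3.55% of positive and 2.17% of negative cells of mouse 1 had a UMI of Fos, and 3.37% and 2.38% in mouse 2.

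Of the 20 immediate early and stress genes tested, 2 rose, 0 fell, and 15 had a difference above 0, with a median of 0.09 against -0.001 over all 14836 genes. In both mice, 10 were higher and 2 lower. Egr1 (19.1 and 14.1 CPM in mouse 1, 18.04 and 16.8 CPM in mouse 2) and Fosb (5.99 and 4.50 CPM, 5.92 and 4.70 CPM), 2 further immediate early transcription factors, were higher in the positive tube of each mouse without passing the test (log2 0.25 ± 0.082, adjusted p = 0.409, and 0.37 ± 0.14, adjusted p = 0.682). Sort order and time to lysis of each tube are not in the labels, and their part in these differences was not tested.

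Of the histone genes, 3 passed the test: Hist1h2bc (log2 0.41 ± 0.062, adjusted p = 1.39e-07), Hist1h3d (0.56 ± 0.12, adjusted p = 0.00456) and Hist1h2ac (0.29 ± 0.064, adjusted p = 0.00732). They lie outside the rule that chose named genes, since histone genes have near-identical copies among which counting can divide reads. Hist1h2bc was at 40.3 and 29.0 CPM in mouse 1 and at 30.02 and 23.7 CPM in mouse 2. Hist1h2ac differed in mouse 1 (42.7 and 29.9 CPM) and had the same 22.6 CPM in both tubes of mouse 2. Hist1h3d was at 13.2 and 7.51 CPM in mouse 1, with 5.15 and 4.66 CPM in mouse 2. Without the condition on Mki67 the calls were lost, with log2 0.16 for Hist1h2bc (adjusted p = 0.848), 0.070 for Hist1h3d (adjusted p = 0.9999) and 0.14 for Hist1h2ac (adjusted p = 0.989). Over 22 alternatives the call was kept in 14, 8 and 10. The rule had removed Mki67-positive cells, so the lists of cycling genes are given as a description. Of 20 G1/S genes 0 rose and 0 fell (median 0.01). Of 20 G2/M genes 0 rose and 0 fell, with 14 above 0 (median 0.055). In both mice, 7 G2/M genes were higher and 3 lower. Over all genes tested 0.135% were called. Whether cycling has a part in the histone differences was not tested. Nusap1, a spindle gene, had the smallest p of the G2/M list (log2 0.32 ± 0.13, adjusted p = 0.690).

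Hmga2, a chromatin protein gene typical of fetal and neonatal stem cells, was lower in the positive tube of each mouse. It stood at 83.5 CPM (positive) and 94.7 CPM (negative) in mouse 1 and at 47.9 CPM and 54.2 CPM in mouse 2, so the mice differed more than the gates. The log2 difference was -0.18 ± 0.041 (SE, n = 2 mice; adjusted p = 0.0107), with -0.18 in each mouse, and it was -0.29 in GEM-X and -0.08 in v3.1 cells. With cells thinned to 4000 UMIs it was -0.049 (adjusted p = 0.961), and the call was kept in 9 of 22 alternatives. Of the 6 fetal and neonatal genes that could be tested out of 11 listed, 1 fell, 0 rose and 5 were below 0 (median -0.18). In both mice, 4 were lower and 1 higher. Dlk1, an imprinted gene of fetal tissues, had the next smallest p (1.58 and 2.19 CPM, 1.53 and 2.75 CPM; log2 -0.68 ± 0.24, adjusted p = 0.610).

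The genes with the largest differences were those of mature neutrophils. S100a9 and S100a8, subunits of calprotectin, were lower in the positive tubes by log2 -2.54 ± 0.12 (adjusted p = 1.29e-71) and -2.42 ± 0.13 (adjusted p = 3.52e-60). The granule and secreted protein genes Ngp, Chil3, Ltf, Lcn2 and Camp were lower by -3.90, -3.81, -3.63, -3.36 and -2.15 (adjusted p from 5.54e-52 to 2.88e-05). S100a9 was at 5.16 and 5.23 CPM in the positive and negative tube of mouse 1, at 4.67 CPM in the positive tube of mouse 2, and at 49.2 CPM in the negative tube of mouse 2. A single tube was high.

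These values came from few cells. 6 cells, 1 in the negative tube of mouse 1 and 5 in that of mouse 2, held at least 20 UMIs of the 7 genes together (140 to 2917), and together 80.7% of all such UMIs in unprimed cells. The next highest cell held 7. No such cell was found in a positive tube. Their total depth was 2318 to 8439 UMIs. Without them, 12 genes passed (8 higher, 4 lower), all among the 20, and S100a9, S100a8, Ngp and Camp gave log2 differences of 0.16, -0.02, 0.10 and 0.13 with adjusted p of 0.944 or above. Lcn2, Ltf and Chil3 then failed the filter on low counts. With Mki67-positive cells let in (20184 cells), S100a9, S100a8 and Camp turned to 0.56, 0.51 and 0.75.

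**Figure D3:**
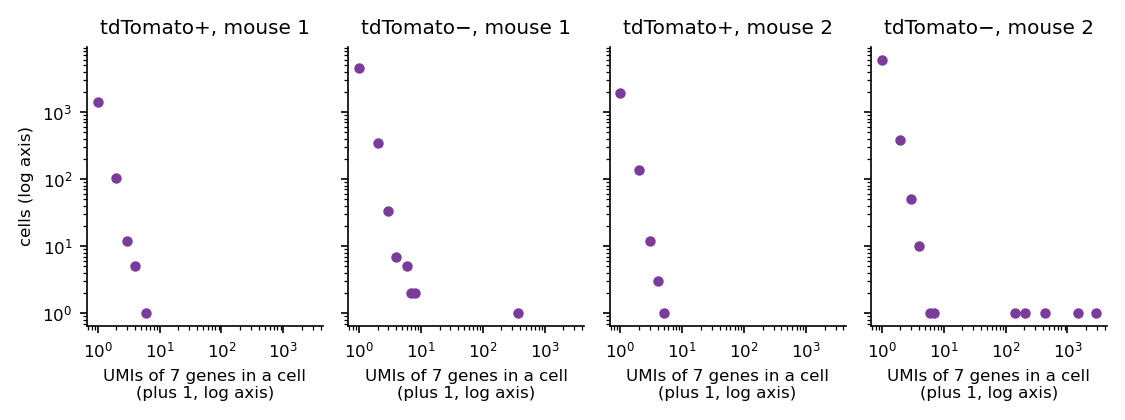
Number of unprimed cells (log axis) by their UMIs of S100a8, S100a9, Ngp, Camp, Lcn2, Ltf and Chil3 together (plus 1, log axis), 1 panel per tube. The 6 points far to the right, at 140 to 2917 UMIs, are single cells of the negative tubes; all other cells hold at most 7.

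The 5 other calls were sparse. Tcf7, a T-cell transcription factor gene, gave 31 UMIs in the positive tube of mouse 1, of which 1 cell held 29, and 38 UMIs in that of mouse 2, of which 1 cell again held 29. Clec9a, a dendritic cell receptor gene, gave 38 UMIs in 2 cells of the positive tube of mouse 2. For Hbb-bs, a haemoglobin gene with near-identical copies, 1 cell held 187 of the 234 UMIs in the negative tube of mouse 2. Ly86 (41 and 33 UMIs, 28 and 58 UMIs) and the gene model Gm20756 (7 and 66, 15 and 105 UMIs) were less concentrated. When the 0.1% of cells with the most UMIs of a gene were left out in each tube, 13 genes passed, and 8 of them were among the 20: Jun, Fos, Gt(ROSA)26Sor, Setd5, Hmga2, Hist1h2bc, Hist1h2ac and Hist1h3d. Ly86 and Gm20756 then had adjusted p of 0.674 and 0.309.

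Genes of stem cell identity showed no call over both chemistries. Of all genes tested 0.135% were called, so 0 calls in short lists, here and below, do not set them apart from other genes. Of 16 HSC markers 0 rose and 0 fell (median -0.01), likewise of 10 multipotent progenitor markers (-0.01), 21 stem cell transcription factors (-0.01) and 12 quiescence regulators (0.01). Hlf was at 583.2 and 617.1 CPM in mouse 1 and at 622.6 and 620.8 CPM in mouse 2, a log2 difference of -0.04 ± 0.016 (adjusted p = 0.747). In v3.1 cells alone Hlf passed the test (-0.11, adjusted p = 0.0111), and in GEM-X cells alone it gave 0.016 (adjusted p = 0.999). The interaction of gate and chemistry did not pass for Hlf (0.13 ± 0.040, GEM-X minus v3.1, adjusted p = 0.759). Mllt3, a stem cell maintenance gene, gave -0.06 ± 0.023 (adjusted p = 0.676) and Procr 0.08 ± 0.052 (adjusted p = 0.889).

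The title of the series speaks of platelet-biased stem cells. Of 20 megakaryocyte-platelet markers that could be tested out of 25 (Gp6 was at 0 UMIs), 0 rose, 0 fell and 13 were above 0 (median 0.06). In both mice, 8 were higher and 3 lower. Vwf, which encodes von Willebrand factor, was at 6.91 and 5.93 CPM in mouse 1 and at 7.38 and 6.12 CPM in mouse 2. These levels were higher in both positive tubes than in both negative tubes, with log2 0.25 ± 0.13 (adjusted p = 0.826). The log2 difference of Vwf was 0.079 in GEM-X and 0.52 in v3.1 cells. For mouse 1 and mouse 2 it was -0.035 and 0.16 in GEM-X cells and 0.57 and 0.47 in v3.1 cells. With cells thinned as above, 2.16% of positive and 2.33% of negative cells of mouse 1 had a UMI of Vwf, the reverse order. In mouse 2 the thinned shares were 3.31% and 2.40%. Rab27b, a gene of granule secretion, and F2r, the thrombin receptor gene, gave 0.21 ± 0.069 (adjusted p = 0.396) and 0.15 ± 0.075 (adjusted p = 0.810). Of 18 genes listed as raised in aged HSCs, 0 rose, 0 fell and 15 were above 0 (median 0.12). In both mice, 7 were higher and 0 lower. The list shares Vwf, Selp, Cavin2 and Itgb3 with the platelet markers. Clu and Aldh1a1 gave 0.56 ± 0.32 (adjusted p = 0.856) and 0.20 ± 0.10 (adjusted p = 0.822). Of all 14836 genes tested, 49.7% were above 0, with 3783 higher and 3789 lower in both mice.

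Among the other lists, 15 interferon-stimulated genes gave 0 calls with 13 below 0 (median -0.03), led by Ifi44 (-0.20 ± 0.060, adjusted p = 0.265). In both mice, 5 of these genes were lower and 2 higher. The 14 erythroid markers held 1 fallen gene (Hbb-bs), the 20 granulocyte-monocyte markers 4 fallen (S100a8, S100a9, Camp and Ltf), the 11 lymphoid markers 1 risen (Tcf7) and the 9 macrophage-dendritic markers 1 risen (Clec9a), which are the calls that rest on few cells. The 4 mast-basophil-eosinophil, 6 endothelial-stromal, 16 microtubule and TPPP and 7 MHC class II genes tested had 0 calls (medians 0.05, 0.13, 0.01 and 0.03). Over the 3 genes of the Rosa26 locus 0 rose, 2 fell and the median was -0.11.

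**Figure D4:**
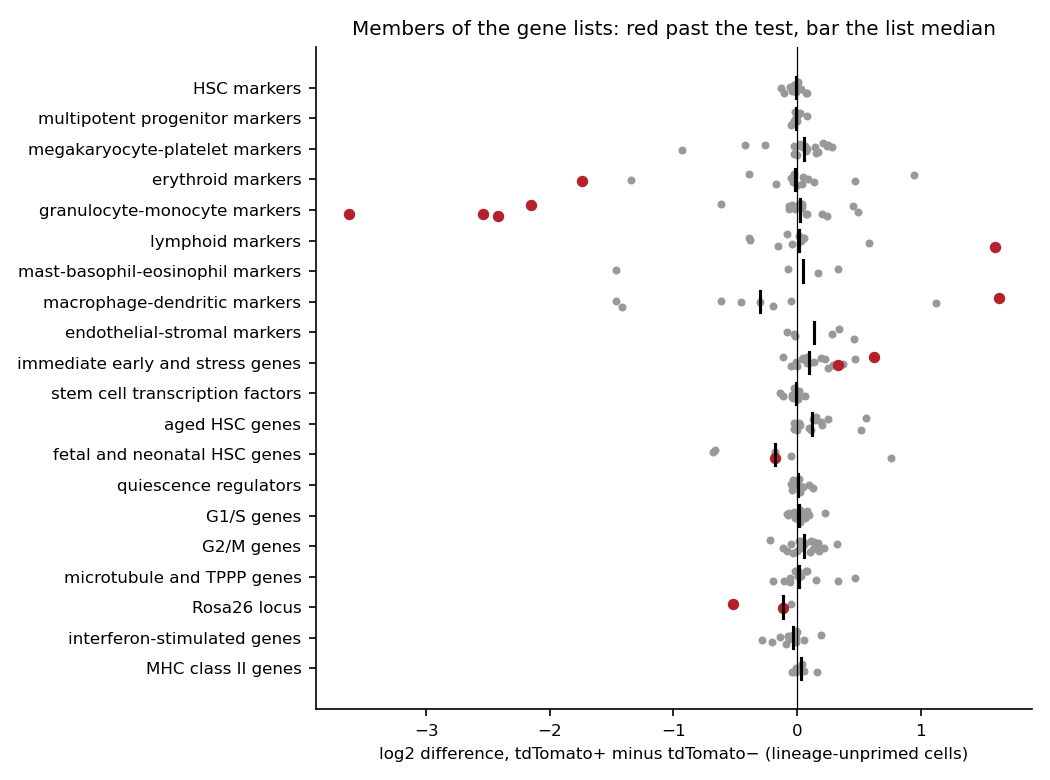
Log2 gate difference of each tested member of 20 gene lists in unprimed cells, with genes past the test in red and a bar at each list's median. The lists of HSC markers and stem cell transcription factors are centred near 0. The aged HSC list has a median of 0.12 and the fetal and neonatal HSC list one of -0.18. Red points far from 0 belong to the erythroid, granulocyte-monocyte, lymphoid and macrophage-dendritic lists.

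The same test in all 33042 single-hashtag cells, which include the unprimed ones, called 150 of 16599 genes (0.904%), among them 10 of the 20. There 11 of 21 granulocyte-monocyte markers rose and 1 fell (median 0.37), 8 of 18 erythroid markers fell and 0 rose (median -0.35), and 4 of 22 megakaryocyte-platelet and 4 of 7 mast-basophil-eosinophil markers rose. In the unprimed cells, 4 granulocyte-monocyte and 1 erythroid marker fell, and these 4 lists held 0 risen genes. With the top cells left out of the unprimed cells, the 4 lists had 0 calls. Top cells were not left out of the fit over all single-hashtag cells, so these counts are not like for like. Whether a gate difference was larger in unprimed than in the remaining 18027 cells was tested as an interaction over 8 sums. It passed for 0 of 15705 genes (0%) with edgeR, with 417 at an unadjusted p under 0.05, and for 0 with DESeq2, with 27 at an unadjusted p under 0.05. A gene called in one set of cells and not in the other is thus not shown to differ between them.

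By mouse, Gt(ROSA)26Sor differed by -0.45 and -0.53 in the remaining cells, Setd5 by -0.11 and -0.11, Hmga2 by -0.19 and -0.13, and Jun by 0.35 and 0.18. When 10 more lineage genes had to be at 0 UMIs (2150 cells), Setd5 stood at 0.00 and Hist1h2bc at -0.15, and Jun, Fos and Gt(ROSA)26Sor kept their direction without a call. The interaction was -0.02 ± 0.11 for Gt(ROSA)26Sor, 0.00 ± 0.051 for Setd5, -0.03 ± 0.10 for Hmga2 and 0.06 ± 0.069 for Jun (log2, unprimed minus remaining, SE). Fos differed by 0.92 and 0.08 in the remaining cells, so the mice disagreed there. Hist1h2bc had the smallest p of the interaction among the 8 genes (0.38 ± 0.081, unadjusted p = 0.000902, adjusted p = 1), with 0.14 and -0.08 in the remaining cells.

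**Figure D5:**
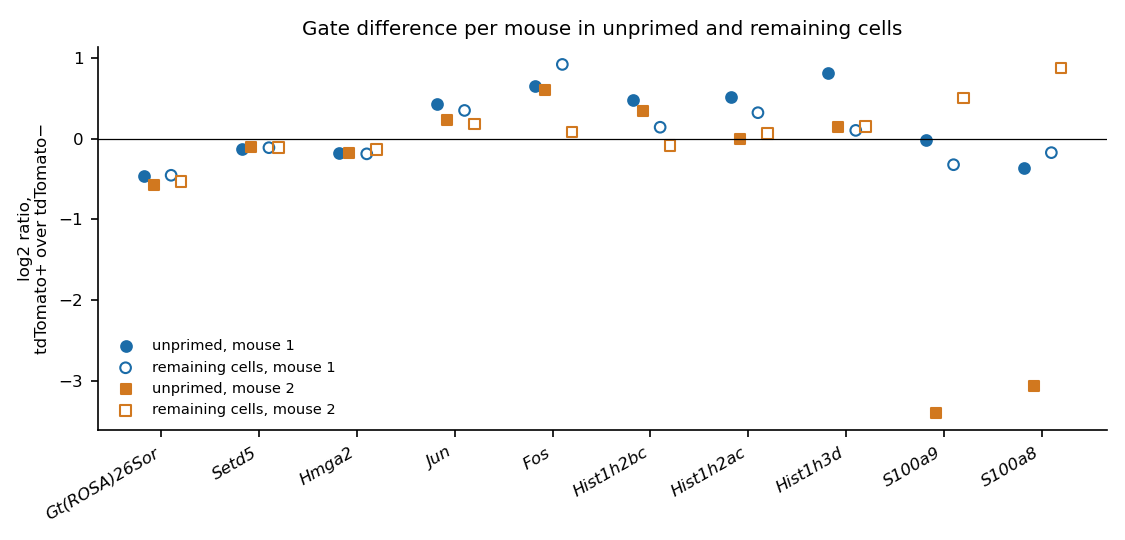
Log2 ratio of tdTomato-positive over tdTomato-negative tubes for 10 genes in each mouse, in unprimed (filled) and remaining cells (open). Gt(ROSA)26Sor, Setd5 and Hmga2 are below 0 and Jun and Fos above 0 at all 4 points, whereas S100a9 and S100a8 are far below 0 in the unprimed cells of mouse 2 alone.

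The 2 chemistries, which are technical repeats on cells of the same tubes, were compared by the interaction of chemistry and gate. It passed for 11 of 14107 genes (0.078%), all with a higher positive-over-negative ratio in GEM-X. For the 8 genes that kept their call with the top cells left out, the adjusted p of this interaction was 0.9999. Of the 20 called genes, 19 went one way in the 2 mice and 12 had the fitted sign in all 4 combinations of mouse and chemistry.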

How the data were processed

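The deposited matrices hold UMI counts per gene and cell barcode, made by the authors with Cell Ranger 8.0.1 and 7.1.0 per the file headers, with 7.0.0 and mm10 per the submitters' processing notes. The matrix of each chemistry was inferred from its name and version, so version and chemistry cannot be told apart. No step before deposit that could alter the counts per cell is otherwise stated in the sources used here. Members, gene lists and rules were chosen with earlier results of these data known.

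Counts were summed per tube and tested with edgeR 4.0.16 (R 4.3.3; TMM, filterByExpr, quasi-likelihood F-test, trended dispersion of at least 1e-04, Benjamini-Hochberg at 0.05) with the mouse as a block, since both tubes of a mouse come from 1 animal. The mouse difference in positive tubes correlated with that in negative tubes across 9442 genes (Pearson r 0.737, a description, as genes are not independent). The 2 interactions used 8 sums with the tube as a block. The SE is the log2 difference over the square root of F. CPM values use the library sizes and TMM factors of the genes tested, and log ratios per mouse add a prior count of 0.5. Only 1 residual degree of freedom exists, so the spread is pooled over genes. In simulated counts with a fixed spread and no mouse differences or outlying cells, the fitted log2 differences followed the known changes. The simulation does not show how the calls behave where such differences or cells exist. Multi-hashtag cells were left out as doublets. Doublets within a tube remain.

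Named genes were Tppp3 and Gt(ROSA)26Sor, then up to 10 risen and 10 fallen genes past the test with at least 10 CPM and 1 sign in both mice and chemistries (unnamed models and near-identical families skipped), and up to 4 per list. Other called genes were named after their values were seen. Coordinates are from GENCODE M21 (32158 of 32285 genes matched), and RefSeq promoters were found for 16 of the 20 called genes. Alternatives were the normalization, tool, filter, block, dispersion floor, each chemistry, mouse and tube, the cell rule, depth and doublets.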

Additional observations from a re-analysis of the deposited data

Results flagged for a closer look

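The interaction of gate and chemistry passed edgeR's quasi-likelihood test for 11 genes, of which the 5 with the smallest p are Ccl5 (2.82, log2, GEM-X minus v3.1), Tcf7 (4.89), Plbd1 (4.66), Clec9a (5.98) and Mpeg1 (3.28). Ccl5 encodes a chemokine, Tcf7 a T-cell transcription factor, and Plbd1, Clec9a and Mpeg1 are expressed in mature myeloid and dendritic cells. Their UMIs sat in few cells: in the positive tube of mouse 2 the top cell held 109 of 208 UMIs of Ccl5, 29 of 38 of Tcf7, 42 of 64 of Plbd1, 24 of 38 of Clec9a and 22 of 53 of Mpeg1. With the 0.1% of cells with the most UMIs of a gene left out per tube and chemistry, 0 genes passed by edgeR (594 at an unadjusted p under 0.05).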

How the results depend on the processing

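The 20 genes called between the gates (8 higher, 12 lower) became 1 (0 and 1) with DESeq2, 0 with no replicate block, 40 (29 and 11) without the dispersion floor, 19 (13 and 6) in GEM-X cells alone, 14 (3 and 11) in v3.1 cells alone, 18 (13 and 5) at 2000 genes or more per cell, 13 (3 and 10) at 5% mitochondrial UMIs or less, 14 (4 and 10) with Elane at 0 UMIs, 3 (0 and 3) with 10 more lineage genes at 0 UMIs, 6 (3 and 3) without the condition on Mki67, 12 (8 and 4) without the 6 neutrophil-rich cells and 13 (9 and 4) without the top 0.1% of cells per gene. The last 2, chosen after seeing the data, remove cells by the genes they affect. Leaving out 1 tube, which removes the block, gave 0 to 45 calls (0 to 18 higher, 0 to 27 lower): 0 without the positive tube of mouse 1 or of mouse 2, 45 when the negative tube of mouse 1 was dropped and 3 when that of mouse 2 was.

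In all single-hashtag cells the 150 calls became 6 with DESeq2 and 0 with no replicate block. The class interaction gave 27 calls without the filter against 0 with it. The chemistry interaction's 11 calls became 0 with DESeq2, with no replicate block and without the top cells.

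Over 22 alternatives Jun (0.11 to 0.54), Fos (0.15 to 0.70) and Gt(ROSA)26Sor (-0.67 to -0.32) kept their direction, and kept their call in 16, 13 and 15. Setd5 kept its call in 10, Hmga2 in 9, Hist1h2bc in 14, Hist1h3d in 8 and Hist1h2ac in 10, and Hlf gained one in v3.1 cells alone (-0.109). With 10 more lineage genes at 0 UMIs, Setd5 gave 0.00214, Hist1h2bc -0.15, Egr1 -0.0276, Mllt3 0.0310 and Hlf 0.0581. In v3.1 cells alone Thumpd3 gave 0.0100, Tcf7 -1.39 and Aldh1a1 -0.16, and in GEM-X cells alone Hlf gave 0.0162. In mouse 2 alone Hlf gave 0.00414 and Hist1h2ac -0.00037. S100a9 gave 0.0938 at 2000 genes or more and 0.56 without the condition on Mki67, where S100a8 gave 0.51, Camp 0.75 and Chil3 0.34. Without the 6 cells S100a9 gave 0.16, Ngp 0.10 and Camp 0.13, and without the top cells 0.0826, 0.0224 and 0.0747. Leaving out 1 tube gave -0.22 to 0.71 for Hist1h2ac, -0.24 to 1.13 for Hist1h3d, -0.64 to 0.27 for Hmga2, -0.54 to 2.75 for Clec9a, -0.0821 to 0.0071 for Hlf and -0.0764 to 1.07 for Clu. Without the block, differences between the mice enter these values. The cause of the other changes was not tested.

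Thinning to 4000 UMIs moved the share of unprimed cells to 51.3% (positive) and 50.9% (negative) in mouse 1 and to 61.5% and 61.8% in mouse 2. It moved the share of unprimed cells with a UMI of Jun to 27.6%, 23.0%, 22.2% and 19.4% in the same order, of Fos to 3.55%, 2.17%, 3.37% and 2.38%, and of Gt(ROSA)26Sor to 7.1%, 9.48%, 5.50% and 8.56%. Scrublet at its automatic threshold marked 0 cells and was not run as planned. At the median score of its simulated doublets, chosen after seeing the data, 22 genes were called. The positive tubes held fewer cells and UMIs, which limits the precision of genes near 1 CPM.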
